A study of Mus musculus with 18 samples.

Results

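Nutrient and metabolite sensing G-protein receptors were followed in the mouse colon through 9 genes, namely Ffar1, Ffar2, Ffar3, Ffar4, Gpbar1, Gpr119, Gpr35, Casr and Hcar2. They were chosen by name among the 52636 genes listed for every library, and all 9 were found. RNA was sequenced from 18 libraries, 6 of sorted colon epithelial cells and 12 of colon crypts of 1 mouse each. The sorted cells and 7 of the crypt libraries came from the Olfr78-GFP line, in which a GFP-IRES-tauLacZ cassette replaces the coding exon of Olfr78, a receptor for short-chain fatty acids. WT Epcam+ cells (2 samples of 1 WT mouse) lack the cassette, HE GFP+ cells (2 pools) carry 1 copy, and KO GFP+ cells (2 pools) carry 2 copies and no intact Olfr78. Each GFP+ pool held cells of 2 mice, and the sorted cells came from mice 4 to 7 months old. The crypts of this line came from 2 WT and 5 KO mice, KO in every tissue. The other crypts came from the Vil1Cre/+-Olfr78fx line, in which Cre under the Villin promoter of epithelial cells deletes a floxed Olfr78, with 3 eCtrl mice (genotype labels HE/WT and WT/HO) and 2 mice labelled eKO. The genotype label of eKO 2 (WT/HO) was the same as that of eCtrl 2 and differed from that of eKO 1 (HE/HO), so the values of the tested members without it are given too.

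These receptors sit in the membrane of epithelial, endocrine and immune cells and bind products of digestion or of the gut microbes. FFAR2 and FFAR3 bind short-chain fatty acids such as acetate and propionate, FFAR1 and FFAR4 bind longer fatty acids, and HCAR2 binds butyrate and ketone bodies. GPBAR1 senses bile acids, GPR119 senses lipid amides and monoacylglycerols, CASR senses extracellular calcium and amino acids, and GPR35 is a receptor for which kynurenic acid is among the proposed ligands. Through Gq they raise calcium, through Gs they raise cyclic AMP, and through Gi they lower it. In enteroendocrine cells such signals are known to bear on the release of gut hormones and serotonin. Several of them, among them FFAR2, GPR35 and HCAR2, are also known from leukocytes.

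Positions are those of GENCODE vM21 on GRCm38. Ffar2 (ENSMUSG00000051314, chromosome 7, 30818348 to 30823775), Ffar3 (ENSMUSG00000019429, chromosome 7, 30854330 to 30856178) and Ffar1 (ENSMUSG00000044453, chromosome 7, 30857390 to 30861564) lie side by side on the minus strand. The gap between Ffar2 and Ffar3 is 30.6 kb and that between Ffar3 and Ffar1 1.21 kb. Ffar4 (ENSMUSG00000054200, chromosome 19, 38097071 to 38114263) and Gpr35 (ENSMUSG00000026271, chromosome 1, 92950865 to 92986391) lie on the plus strand. Casr (ENSMUSG00000051980) covers 36493696 to 36562141 of chromosome 16 on the minus strand. Gpbar1 (ENSMUSG00000064272) covers 74278550 to 74279624 of chromosome 1, plus strand, Gpr119 (ENSMUSG00000051209) 48667979 to 48674478 of chromosome X, minus strand, and Hcar2 (ENSMUSG00000045502) 123863570 to 123865499 of chromosome 5, minus strand. No exon of these 9 genes overlaps an exon of another annotated gene.

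The 250 bases before the start of 3 free fatty acid receptors are shown because Ffar2 and its neighbour Ffar3 had very unequal levels and because Ffar2 and Ffar4 differed in opposite directions between sorted cells. The sequences are those of RefSeq on GRCm38.p6, 5′ to 3′ on the strand of the gene, and 8 of the 9 members had an entry, with 12 starts in all. Capitals mark matches to CAGATG, a form of the E-box of NeuroD-like factors (CATCTG when it lies on the other strand), and to GGGCGG, the GC box. TTTATG, a form of the CDX site, was searched as well. The motifs do not overlap each other in these sequences.
Ffar2, chr7:30823776-30824025, the most upstream of its 4 starts: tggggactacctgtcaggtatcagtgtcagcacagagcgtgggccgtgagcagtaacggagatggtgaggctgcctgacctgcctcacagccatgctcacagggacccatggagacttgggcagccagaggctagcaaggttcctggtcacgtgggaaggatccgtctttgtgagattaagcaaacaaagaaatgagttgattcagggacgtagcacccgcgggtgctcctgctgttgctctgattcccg
Ffar3, chr7:30856179-30856428: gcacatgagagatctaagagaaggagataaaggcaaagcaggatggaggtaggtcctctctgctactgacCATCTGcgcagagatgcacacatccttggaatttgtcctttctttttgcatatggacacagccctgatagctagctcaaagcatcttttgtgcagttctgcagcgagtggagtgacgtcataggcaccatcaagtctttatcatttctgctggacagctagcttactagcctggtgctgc
Ffar4, chr19:38096829-38097078: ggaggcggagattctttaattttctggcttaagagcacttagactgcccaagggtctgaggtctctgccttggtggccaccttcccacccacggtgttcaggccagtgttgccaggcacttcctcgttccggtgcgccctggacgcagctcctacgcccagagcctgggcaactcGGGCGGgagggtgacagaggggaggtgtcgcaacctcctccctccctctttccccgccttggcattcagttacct
CAGATG was found 180 bases before the start of Ffar3 and 59 bases before that of Ffar1, not shown here, and GGGCGG 75 bases before the start of Ffar4. CAGATG was also 179 bases before 1 of the 2 starts of Gpr35. None of the 3 motifs was in the sequence of Ffar2 shown, while its other 3 starts had TTTATG 127 bases before, GGGCGG 144 bases before and GGGCGG 197 bases before. Both GGGCGG matches are the same letters of the genome, since the sequences of those starts overlap. No motif was found for Gpbar1, Gpr119, Casr or the other start of Gpr35. Among 32536 distinct mouse sequences of the same kind, 14.4% held CAGATG, 10.8% TTTATG and 33.0% GGGCGG on either strand. A match is a description of the letters and not a bound site.

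Values are reads of a gene scaled to 20000000 per library and rounded up (CP20M). A library's smallest step, 1 read, was worth 8.94 to 13.33 CP20M in 5 of the sorted libraries, 37.54 in KO pool 1 and 1.82 to 3.24 in crypts. The sorted libraries had 1499836 to 2237486 reads on genes apart from KO pool 1 with 532704, and the crypts 6175306 to 10995342. The cell type was checked with marker lists. The labels give all 6 sorted libraries the subtype enteroendocrine, but the summed level of 6 enteroendocrine genes was 729358 to 960241 CP20M in HE pools, 306420 to 509629 in KO pools and 11252 to 11487 in Epcam+ samples, within the range of 4805 to 11980 in crypts. Genes of other epithelial cells were also read in GFP+ pools, and whether they come from other cells in the pools was not tested. The sum of 7 goblet genes was 62440 to 333622 in the 4 pools and 298515 to 348939 in Epcam+ samples. That of 6 colonocyte genes was 20389 to 65430 against 84529 to 96432. Of these 6, Krt20 went the other way, with 11876 to 31364 in the pools and 4434 and 3822 in Epcam+ samples. The other 5 were lower in HE pools than in Epcam+ samples at an adjusted p under 0.05 from limma. Of these, Aqp8, with 24 and 107 CP20M in HE pools, passed the filter through the Epcam+ samples (528 and 381). Its call is not read as a result. The leukocyte list summed to 152 to 258 in sorted libraries, with Cd3e, H2-Aa and S100a8 at 0 in all 6, and to 453 to 1735 in crypts. Olfr78 had 4822 and 4401 CP20M in HE pools and 977 and 837 in KO pools, at the level of the whole gene, which does not tell apart reads of the replaced exon. It had 61 to 124 in eCtrl crypts, 21 in eKO 1 and 73 in eKO 2. Olfr558, the neighbouring receptor for short-chain fatty acids, had 9 and 62 in Epcam+ samples, 1588 and 2014 in HE pools and 413 and 128 in KO pools. Both share exons with another annotated gene, so their counts are uncertain. The library labelled eKO 2 lay within the range of the controls for Olfr78.

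**Figure D1:**
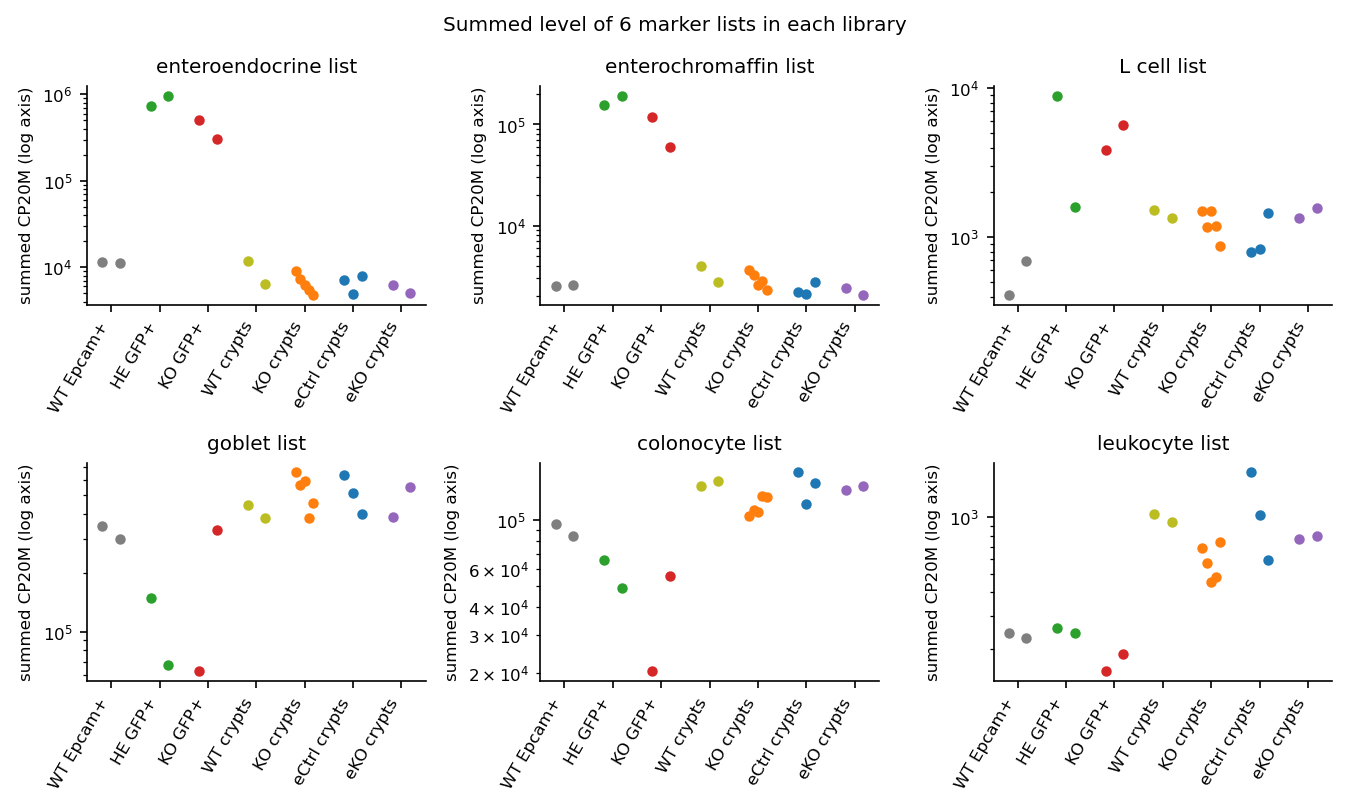
Summed CP20M of the genes of 6 marker lists (log axis) in each library, points coloured by group. The enteroendocrine and enterochromaffin sums of the 4 GFP+ pools lie far above all other libraries, and the goblet and colonocyte sums of the pools stay at 62440 and 20389 or more. Of the 20389, in KO pool 1, 14755 is Krt20, which was higher in the pools than in Epcam+ samples.

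Of the 9 receptors, 3 were at 40 CP20M or more in all 18 libraries, namely Ffar2, Gpr35 and Ffar4. Their lowest values were 292, 81 and 41 CP20M. The other 6 stayed under 40 CP20M in all crypts except Ffar3 in eCtrl 1, at 42. In sorted cells they passed 40 only in Casr of both KO pools, Gpr119 and Hcar2 of HE pool 1 and Gpbar1 of HE pool 2. To compare genes with each other, levels were divided by the exon length of the annotation. In HE pools Ffar2 held 73.4% to 84.7% of the summed per-length level of the 9 genes. In Epcam+ samples Ffar2, Ffar4 and Gpr35 had near equal shares of 28.6% to 36.7%, 29.6% to 33.3% and 27.9% to 29.8%. In WT crypts Ffar4 led with 59.2% to 61.4%, with 17.8% to 18.2% for Ffar2 and 17.6% to 19.2% for Gpr35. Fewer cells of a type and less RNA per cell cannot be told apart in these bulk samples.

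**Figure D2:**
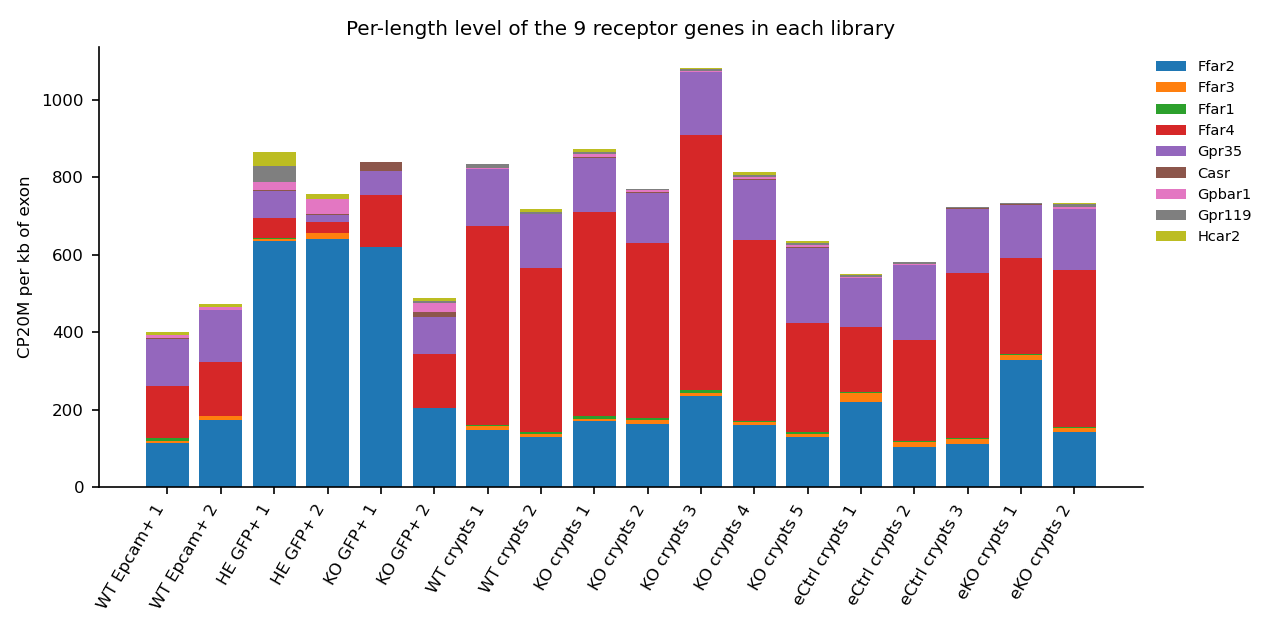
Stacked CP20M per kb of exon of the 9 receptor genes in each library, 1 bar per library. Ffar2 takes most of the bar in HE pools, and Ffar4 is the tallest segment in every WT and KO crypt library.

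**Figure D3:**
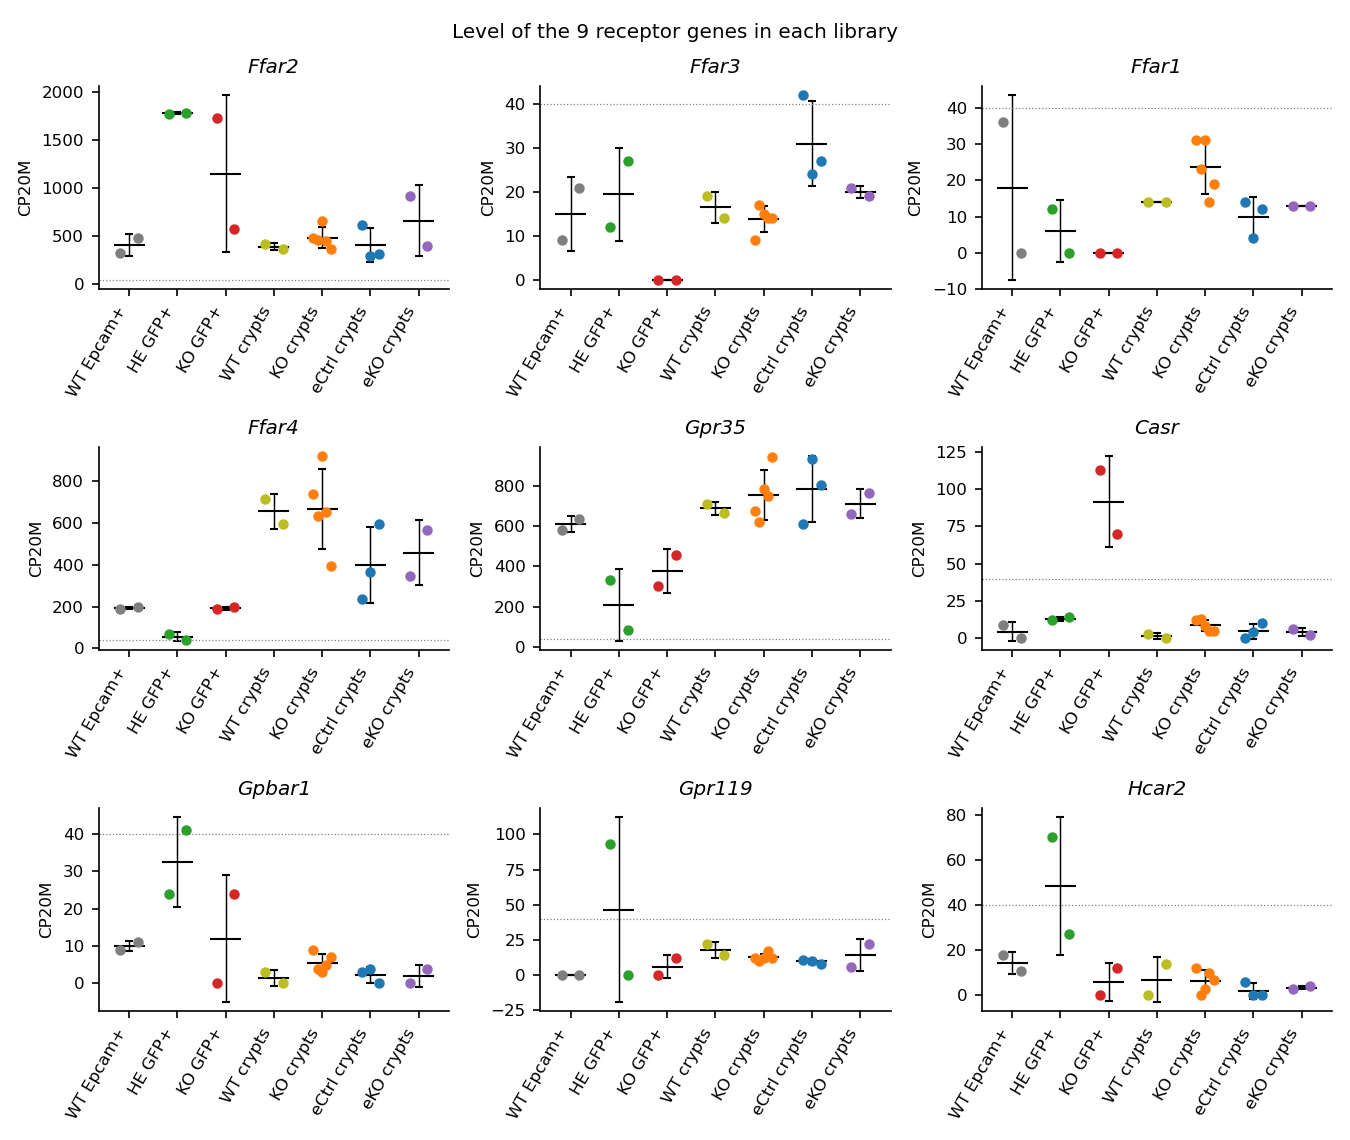
CP20M of each receptor gene by group, with 1 point per library, the mean as a line and the SD as a bar (n = 2, or 5 for KO crypts and 3 for eCtrl crypts), and a dotted line at 40 CP20M. Ffar2 stands highest in HE pools and Ffar4 and Gpr35 in crypts, and the axes differ between panels.

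Ffar2, the receptor for acetate and propionate, was the member with the clearest link to GFP+ cells. It had 322 and 483 CP20M in Epcam+ samples, 1773 and 1787 in HE pools, and 1728 and 570 in KO pools. Both HE pools stood above every other library, with KO pool 1 just under them and KO pool 2 near Epcam+ samples. The mean of HE pools, 1780 ± 9.90 (SD, n = 2), was 4.42 times that of Epcam+ samples, 402 ± 114 (SD, n = 2). On the scale of log2(CP20M + 10) the difference was 2.15 with a 95% interval of 1.53 to 2.76 and an adjusted p of 0.00135 from limma. This passed an adjusted p of 0.05 but not the stricter limit of 0.001 with a log2 fold change beyond 2. The stricter limit was passed with the quasi-likelihood test of edgeR (log2 fold change 2.19, adjusted p = 4.3e-05) and with DESeq2 (2.20, adjusted p = 5.1e-07), both on recovered reads. Over all alternatives the adjusted p of Ffar2 ran from 5.1e-07 to 0.03. HE pools and Epcam+ samples differ in gate, mice and copies of Olfr78 at once, and these cannot be told apart.

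Between KO and HE pools, Ffar2 had a ratio of means of 0.646. The groups did not overlap, but KO pool 1, at 1728 CP20M with 1 read worth 37.54, lay just under the HE pools at 1773 and 1787. The limma difference was -0.83, with an interval of -1.97 to 0.30 and an adjusted p of 0.931. Which pool is used decides this value. Without KO pool 1 it was -1.63, and without KO pool 2 it was -0.0425. With 1 library of a group left, here and for every such value of the other members, the spread between libraries comes from the other groups alone. Such differences between sorted cells are therefore given without a p. Against Epcam+ samples the KO pools were 2.85 times higher in mean, with a limma difference of 1.31 (interval -0.0539 to 2.68, adjusted p = 0.28). Without KO pool 2 that value was 2.10, and without KO pool 1 it was 0.52. KO pool 2, the lower one in Ffar2, was also the lowest of the 4 pools in the enteroendocrine sum (306420) and the enterochromaffin sum (60240), and the highest in the goblet sum (333622). The part of these lists in the value of Ffar2 was not tested.

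Ffar3, the other classical receptor for short-chain fatty acids, was near the limit of detection in sorted cells. It had 9 and 21 CP20M in Epcam+ samples, 12 and 27 in HE pools and 0 in both KO pools. These values stand for 3, 3 and 0 reads. The 0 in KO pools allows up to 26.6 CP20M, the level of 3 reads over both pools, so a difference was not detectable at this depth. In crypts, where depth was greater, Ffar3 was 14 to 19 CP20M in WT, 9 to 17 in KO, 24 to 42 in eCtrl and 19 to 21 in eKO libraries. The eCtrl libraries lay above the eKO libraries without overlap. All 12 crypt libraries held Ffar3 reads, 3 to 16 each.

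Ffar1, a receptor for long-chain fatty acids, showed the same low level. It had 36 and 0 CP20M in Epcam+ samples, 12 and 0 in HE pools and 0 in both KO pools, which again allows up to 32.7 CP20M. KO crypts had 14 to 31 CP20M, with a median of 23, and WT crypts 14 in both. The eCtrl libraries had 4, 12 and 14, and both eKO libraries 13. The ranges of KO and WT crypts touched, and neither Ffar1 nor Ffar3 passed the filter for the test in any comparison.

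Ffar4, the receptor for long-chain and omega-3 fatty acids, was, unlike Ffar2, lowest in HE pools. It had 188 and 196 CP20M in Epcam+ samples, 70 and 41 in HE pools, and 188 and 198 in KO pools. Both HE pools were lower than every other library, and KO pools and Epcam+ samples had the same level. The log2 difference of HE pools from Epcam+ samples was -1.66 (interval -2.90 to -0.42, adjusted p = 0.0579 from limma), and that of KO from HE pools 1.67 (interval 0.42 to 2.92, adjusted p = 0.931 from limma). Both differences share the HE pools. On leaving out a library the first ran from -1.99 (without HE pool 1) to -1.34 (without HE pool 2). The difference of KO pools from Epcam+ samples was 0.00697, with an interval of -1.12 to 1.13. The values rest on few reads, 21 and 19 in Epcam+ samples, 6 and 3 in HE pools and 5 and 17 in KO pools. Over summed reads the ratio of KO to HE pools was 3.51, with an exact 95% interval of 1.55 to 8.66 that covers counting error only. In WT crypts Ffar4 reached 596 and 717 CP20M, 3.42 times the mean of Epcam+ samples, but crypts and sorted cells were extracted with different kits and the step from one to the other was not tested.

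Gpr35, a receptor known from crypt epithelium and leukocytes, was lower in GFP+ pools than in Epcam+ samples. It had 582 and 637 CP20M in Epcam+ samples, 334 and 81 in HE pools and 301 and 454 in KO pools. Every GFP+ pool was below both Epcam+ samples, and the HE and KO pools overlapped. The log2 difference of HE pools from Epcam+ samples was -1.81 (interval -3.13 to -0.48, adjusted p = 0.0543 from limma). The pools differ in how low they are, since the value was -2.77 without HE pool 1 and -0.85 without HE pool 2. The quasi-likelihood test of edgeR gave -1.48 with an adjusted p of 0.0257, and DESeq2 -1.51 with 0.0752. The KO pools had a difference from Epcam+ samples of -0.70 (interval -1.60 to 0.19, adjusted p = 0.345 from limma). It was -0.99 without KO pool 2 and -0.42 without KO pool 1. The difference of KO from HE pools was 1.10 (interval -0.49 to 2.70, adjusted p = 0.931 from limma). The last value was 2.06 without HE pool 1 and 0.14 without HE pool 2. HE pool 2, the lowest in Gpr35 and Ffar4, had 67369 in the goblet sum against 148437 in HE pool 1, and 48755 against 65430 in the colonocyte sum. Krt20, which was higher in HE pools than in Epcam+ samples, made up 31364 of the 48755 and 24878 of the 65430. The part of these lists was not tested.

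Casr, the calcium-sensing receptor, was seen above 40 CP20M only in KO pools. It had 113 and 70 CP20M there, 12 and 14 in HE pools, and 9 and 0 in Epcam+ samples. The KO pools lay above all 16 other libraries, of which the highest had 14. The counts were 9 reads in KO pools, 2 in HE pools and 1 in Epcam+ samples. Over summed reads the ratio of KO to HE pools was 6.46, with an exact 95% interval of 1.34 to 61.5, and that of KO pools to Epcam+ samples 16.7, with 2.32 to 732, both for counting error only. Casr passed the filter only between KO pools and Epcam+ samples, and only through the KO pools, where the log2 difference was 2.85 (interval 0.54 to 5.16, adjusted p = 0.226 from limma). In crypts it had 5 to 13 CP20M in KO, 0 and 3 in WT, 0 to 10 in eCtrl and 2 and 6 in eKO libraries.

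The KO crypts lay above the WT crypts in Casr without overlap, at 2 to 4 reads per KO library and 1 WT read in all. Casr did not pass the filter in crypts, and in the fit without a filter the log2 difference was 0.68 (interval 0.0312 to 1.33, adjusted p = 0.403 from limma).

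The receptors for bile acids, lipid amides and butyrate had few reads. Gpbar1 had 9 and 11 CP20M in Epcam+ samples, 24 and 41 in HE pools and 0 and 24 in KO pools, from 2, 5 and 2 reads. Hcar2 had 18 and 11 in Epcam+ samples, 70 and 27 in HE pools and 0 and 12 in KO pools, from 3, 8 and 1 reads. Both had their highest mean in HE pools. Over summed reads the ratio of HE pools to Epcam+ samples was 3.23 for Gpbar1, with an exact 95% interval of 0.529 to 33.9, and 3.45 for Hcar2, with 0.827 to 20.2, and both intervals include a ratio of 1. In crypts Gpbar1 ran from 0 to 9 CP20M and Hcar2 from 0 to 14.

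Gpr119, a receptor of incretin-secreting cells, was found in 1 of the 2 HE pools, with 93 CP20M from 8 reads in pool 1 and 0 in pool 2. It was at 0 in both Epcam+ samples, where up to 14.3 CP20M are allowed over both, and at 0 and 12 in KO pools. All 12 crypt libraries held it, at 6 to 22 CP20M. HE pool 1 was also the pool with the highest sum of the 4 L cell genes, 8873 CP20M against 1590 in HE pool 2 and 3832 and 5695 in KO pools. The part of L cells in the value of Gpr119 was not tested.

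Between HE pools and Epcam+ samples, 3 of the 9 members passed the filter of 40 CP20M in at least 2 libraries, and 0 of them passed the stricter limits in limma. The background was 1.75% of 16355 genes. At an adjusted p under 0.05, Ffar2 was called higher and 0 members lower, against a background of 23.8%. The other 2 tested members, Ffar4 and Gpr35, had differences of -1.66 and -1.81, and the median over all genes tested was -0.0503. At the stricter limits, 1 member was called by edgeR, among 746 genes, and by DESeq2, among 691.

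Between KO and HE pools the study's methods call a gene with more than 40 CP20M in all 4 pools when its means differ by over 2 times the average SD and by a ratio beyond 1.5. Ffar4 was the member that met this criterion, higher in KO pools, with a log2 ratio of means of 1.80 and a difference of 9.97 average SDs. Ffar2 had -0.63 and -1.52 and did not meet it, nor did Gpr35. The KO values of Ffar4, 188 and 198 CP20M from 5 and 17 reads, lay closer together than 1 read of KO pool 1 (37.54). In HE pool 2 Ffar4 passed the limit of 40 at 41 CP20M, from 3 reads. The criterion was met by 13.2% of 11892 genes (384 higher and 1187 lower) and carries no correction for many genes. In limma 0 members and 0% of genes were called at an adjusted p under 0.05, while 503 genes and Ffar4 had an unadjusted p under 0.05. Of the other tools, edgeR called 0 genes and DESeq2 8, no member among them. The median log2 difference over all genes was -0.18, and -0.0177 after median-of-ratios rescaling, under which Ffar4 stood at 1.81.

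Between KO pools and Epcam+ samples, 4 members were tested and 0 were called in limma at the stricter limits or at an adjusted p under 0.05. The backgrounds were 0% and 0.735% of 15779 genes. At an unadjusted p under 0.05 there were 2925 genes. Casr was among the 4 only because of its level in KO pools, so its p is not read as a result. At the stricter limits edgeR called 31 genes and DESeq2 238, with 0 members in either.

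**Figure D4:**
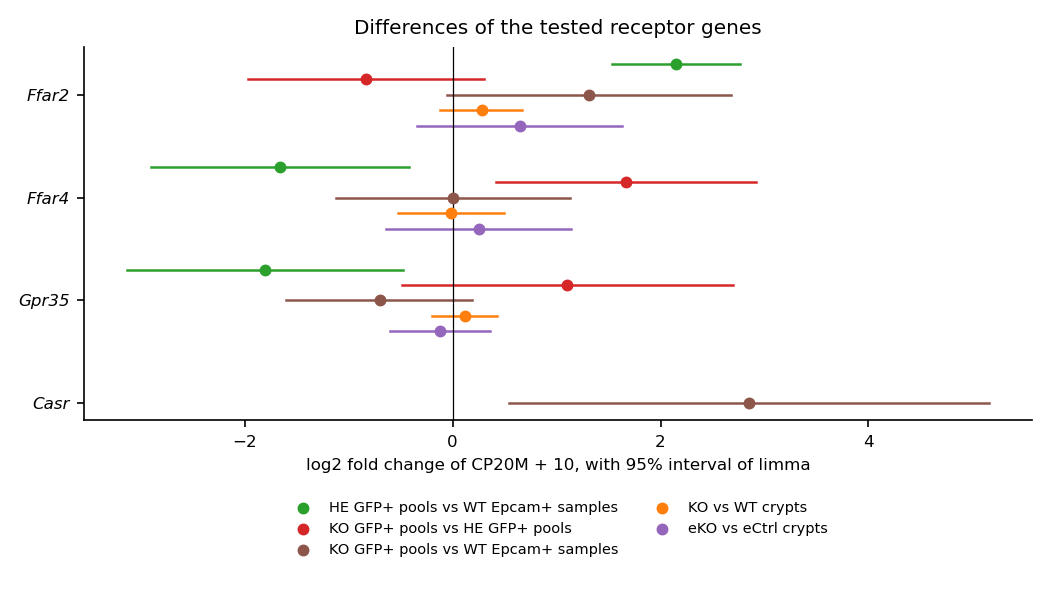
Log2 fold changes of the members that passed the filter, with the 95% interval of limma, in 5 comparisons. The interval of Ffar2 between HE pools and Epcam+ samples lies at 1.53 to 2.76, those of Ffar4 lie on opposite sides of 0 in the 2 comparisons with HE pools, and all crypt intervals include 0.

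In crypts, the question was whether loss of Olfr78 in the whole body or in the epithelium alone went with a change in the other receptors. No member passed the limits (a change beyond 1.5 times with an adjusted p no higher than 0.2) in either line or in both together. Ffar2 had 413 and 365 CP20M in WT and 363 to 658 in KO crypts, median 457, and the groups overlapped. The limma difference was 0.28 (interval -0.12 to 0.67, adjusted p = 0.359). Ffar4 had 717 and 596 in WT and 394 to 921 in KO crypts, median 654, with a difference of -0.0193 (interval -0.53 to 0.49). Gpr35 had 709 and 666 in WT and 619 to 942 in KO crypts, median 748, with a difference of 0.12 (interval -0.20 to 0.43). For these 3 genes the intervals leave out a change of 2 times in either direction. In the same comparison 9.48% of 15975 genes were called. The leukocyte list moved with genotype, with a sum of 951 and 1038 CP20M in WT and 453 to 741 in KO crypts and 3 of 7 tested genes lower, Cd74, H2-Aa and Ptprc. H2-Aa, with 83 and 111 CP20M in WT and 10 to 41 in KO crypts, passed the filter through the WT crypts, where it is high. Its call is not read as a result. The part of leukocytes in the receptor levels was not tested.

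In the line with epithelial deletion, Ffar2 had 615, 292 and 310 CP20M in eCtrl and 920 and 395 in eKO crypts. Mouse 1 of each group stood above the others of its group, and the groups overlapped. The log2 difference was 0.65 (interval -0.34 to 1.63, adjusted p = 1 from limma), 1.25 without eKO 2 (adjusted p = 0.678) and 0.0458 without eKO 1 (adjusted p = 0.999). Ffar4 had 235, 366 and 594 in eCtrl and 348 and 568 in eKO crypts, lowest in mouse 1 of each group. Its difference was 0.25 (interval -0.64 to 1.14), and -0.0927 without eKO 2. Gpr35 had 610, 935 and 805 against 660 and 763, a difference of -0.12 (interval -0.60 to 0.36), and -0.22 without eKO 2. In limma 0% of 15401 genes were called, 127 had an unadjusted p under 0.05 (0 of the members), edgeR called 0 and DESeq2 6.

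With both lines in 1 fit, Ffar2 had a difference of 0.44 (interval -0.0525 to 0.94, adjusted p = 0.655 from limma), Ffar4 0.10 (interval -0.40 to 0.61) and Gpr35 0.00865 (interval -0.26 to 0.28). The background was 0.0243%, 4 of 16447 genes. Without eKO 2 the value of Ffar2 was 0.61 (adjusted p = 0.68 from limma), that of Ffar4 -0.0446 and that of Gpr35 -0.000464. The genotype effect on Ffar2 did not pass a test of its difference between the lines, at 0.37 (interval -0.64 to 1.38, adjusted p = 0.779 from limma), nor did those on Ffar4, 0.27, and Gpr35, -0.24, against a background of 0.0304%. Without eKO 2 the effect on Ffar2 was called larger in the Vil1Cre/+-Olfr78fx line, by 0.97 (adjusted p = 0.185 from limma), with -0.0734 for Ffar4 and -0.34 for Gpr35. In that fit 4296 of all genes were called, and eKO 1 was then the lone library of its group.

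The order of the 7 groups differed between the 3 abundant receptors. For Ffar2 it was HE pools, KO pools, eKO, KO, eCtrl, Epcam+ and WT. There only the step from HE to KO pools was free of overlap, by 1773 against 1728 CP20M. For Ffar4 it was KO crypts, WT, eKO, eCtrl, KO pools, Epcam+ samples and HE pools. Its steps without overlap were from WT to eKO crypts (596 against 568 CP20M), from eCtrl crypts to KO pools and from Epcam+ samples to HE pools. For Gpr35 it was eCtrl, KO, eKO and WT crypts, Epcam+ samples, KO pools and HE pools. Its steps without overlap were from WT crypts to Epcam+ samples (666 against 637 CP20M) and from there to KO pools. The share of all genes without overlap between such small groups was not counted. A lack of overlap, here and for the members above, is therefore not read as a result. The crypts of the 2 lines lie in separate tables, so levels across them are set side by side and not tested.

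The signalling partners of these receptors were followed in lists of genes chosen together with the members. Among 14 other metabolite receptors, 4 passed the filter between HE pools and Epcam+ samples, with a median log2 difference of 0.33 against -0.0503 for all genes. The 4 and the median include Hcar1. Hcar1, the lactate receptor next to Hcar2, was the 1 gene called at an adjusted p under 0.05, but it passed the filter only through the HE pools, where it is high, so the call is not read as a result. It had 0 in both Epcam+ samples, 150 and 174 CP20M in HE pools, 76 and 24 in KO pools and 0 to 9 in crypts.

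Of 14 G alpha subunits, 13 were tested between HE pools and Epcam+ samples. Gnao1 and Gnaz, subunits of the Gi family known from neurons and endocrine cells, passed the stricter limits, both higher. Gnao1 had 72 and 42 CP20M in Epcam+ samples, 4546 and 4361 in HE pools and 3417 and 1465 in KO pools, a difference of 6.09 for HE pools (adjusted p = 1.6e-05 from limma). Gnaz had 18 and 0, 771 and 881, and 76 and 221, a difference of 5.64 (adjusted p = 8.1e-04 from limma). Like Hcar1, Gnaz passed the filter only through the HE pools, where it is high, so its call is not read as a result. At an adjusted p under 0.05, with 23.8% of all genes called, a total of 5 subunits were higher, with Gna14, Gnai2 and Gnaq besides. Gnai1 was lower, but with 24 and 27 CP20M in HE pools it passed the filter only through the Epcam+ samples (197 and 114). Its call is not read as a result. The median of the list was 0.45. These counts and the median include Gnaz and Gnai1, so they are a description only. Without the trend in limma 0 genes, and so none of the signalling genes named here, passed the stricter limits. Gnao1 was also higher in KO pools than in Epcam+ samples at an adjusted p under 0.05 (5.11, adjusted p = 0.0242 from limma). Between KO and HE pools, Gnao1 and Gnaz met the criterion, lower in KO pools, with log2 ratios of -0.87 and -2.48. That is 2 of 11 tested subunits, against a background of 13.2%.

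Among 14 genes of phospholipase C and calcium signalling, 12 were tested between HE pools and Epcam+ samples. Itpr3, a calcium release channel of the endoplasmic reticulum, passed the stricter limits. It had 3656 and 2353 CP20M in Epcam+ samples, 15557 and 13682 in HE pools and 10888 and 6845 in KO pools, a difference of 2.31 for HE pools (adjusted p = 4.5e-04 from limma). At an adjusted p under 0.05, where 23.8% of all genes were called, 4 genes were higher (Itpr3, Itpr1, Itpr2 and Prkce) and 7 lower, among them the phospholipases Plcb1, Plcb2 and Plcb3, with a list median of -0.96. Plcb2, with 152 and 144 CP20M in Epcam+ samples and 24 and 14 in HE pools, passed the filter only through the Epcam+ samples. Its call is not read as a result, and the 7 and the median include it. Between KO and HE pools 3 of 11 met the criterion, Itpr3 and Prkce lower and Plcb1 higher, against 13.2% of all genes.

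Among 20 genes of cyclic AMP signalling, 18 were tested. The adenylyl cyclases Adcy1 and Adcy2 passed the stricter limits, higher in HE pools. Adcy1 had 0 and 11 CP20M in Epcam+ samples, 783 and 534 in HE pools and 714 and 175 in KO pools, a difference of 5.50 (adjusted p = 8.2e-04 from limma). Adcy2 had 63 and 21, 1542 and 1574, and 1728 and 442, a difference of 5.04 (adjusted p = 3.6e-04 from limma). Adcy1 and Adcy2 passed the filter only through the HE pools, where they are high, so their calls are not read as a result. At an adjusted p under 0.05, 6 genes were higher and 2 lower, with a median of 1.05, against the same 23.8% of all genes. The 6 and the median include Adcy1 and Adcy2, so they are a description only. Between KO and HE pools 3 of 16 met the criterion, Adcy5, Prkaca and Prkar1a, all lower in KO pools, against 13.2% of all genes.

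Of 19 genes that end receptor signals, 14 were tested. Rgs4 and Rgs7, which speed the shut-off of G alpha subunits, and Grk3, a receptor kinase, passed the stricter limits, higher in HE pools by 6.59, 5.28 and 3.30 (adjusted p = 3.0e-04, 4.1e-04 and 2.6e-04 from limma). Rgs4 had 18 and 0 CP20M in Epcam+ samples, 1324 and 1934 in HE pools and 1953 and 442 in KO pools. Grk3 had 188 and 155, 1519 and 2054, and 1878 and 558. Rgs7 had 9 and 11, 691 and 854, and 1052 and 384, and was also higher in KO pools than in Epcam+ samples (5.02, adjusted p = 0.0496 from limma). Rgs4 and Rgs7 passed the filter only through the GFP+ pools, where they are high. Their calls, that of Rgs7 in KO pools included, are not read as a result. KO pool 2 was the lowest of the 4 GFP+ pools in Gnao1, Itpr3, Adcy1, Adcy2, Grk3, Rgs4 and Rgs7, as it was in Ffar2. In Gnaz it was KO pool 1. Between KO and HE pools 1 of 9 tested genes of the list met the criterion, Rgs16, lower in KO pools, against 13.2% of all genes.

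**Figure D5:**
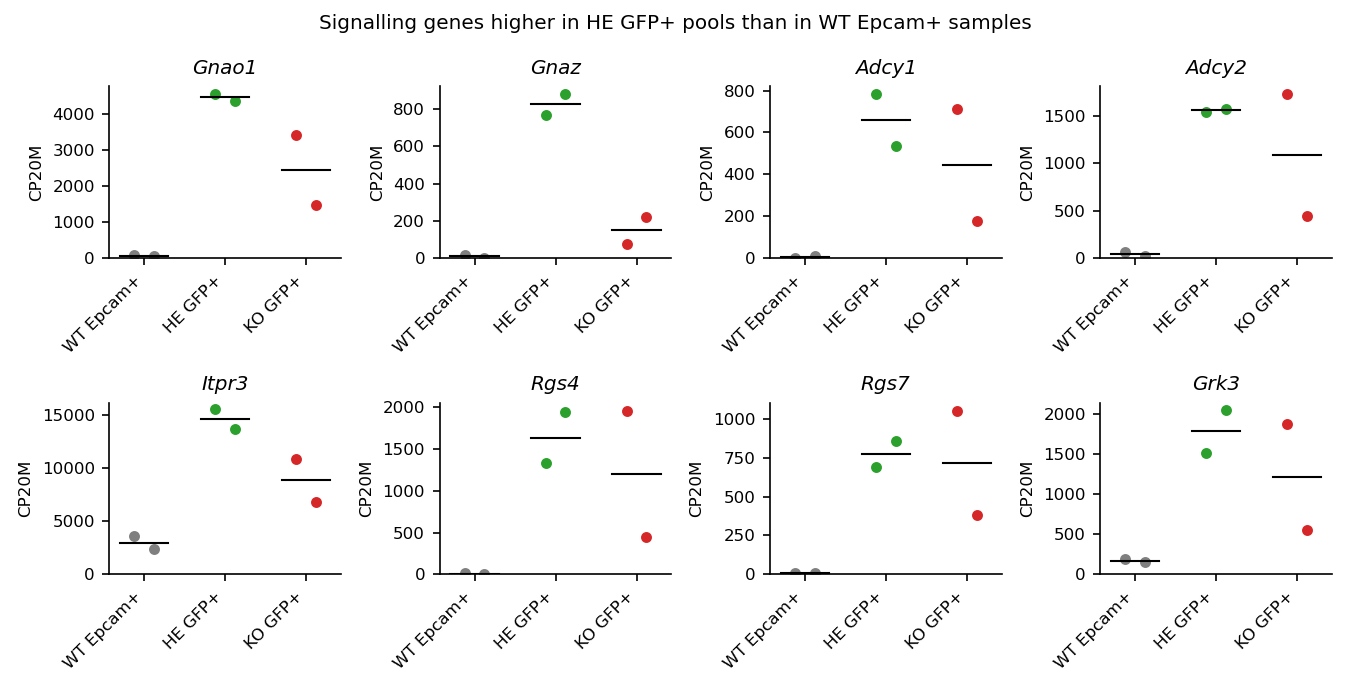
CP20M of 8 signalling genes in the 6 sorted libraries, with 1 point per library and the group mean as a line. The genes are those past the stricter limits for HE pools, so their higher level there is given by the choice. All 4 GFP+ pools lie above both Epcam+ samples in each gene, and the KO pools are further apart than the HE pools in each of the 8.

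Lists of short-chain fatty acid transport and of bile acid handling were followed as well. Of 6 tested genes of short-chain fatty acid transport, 3 were lower in HE pools than in Epcam+ samples at an adjusted p under 0.05, Slc16a1, Slc16a7 and Slc26a3, by -2.17, -1.98 and -2.06, and 0 were higher, against 23.8% of all genes called in either direction (1854 lower). Slc16a3, a lactate exporter that was not called, had 45 and 21 CP20M in Epcam+ samples and 93 and 187 in HE pools. Slc16a1, the monocarboxylate transporter MCT1, had 5033 and 5332 CP20M in Epcam+ samples and 1957 and 667 in HE pools. Of 7 tested genes of bile acid handling, 5 were lower and 0 higher at the same limit, the transport and binding genes Slc10a2, Fabp6 and Abcc3 and the nuclear receptors Vdr and Nr1h4. Fabp6, with 501 and 134 CP20M in Epcam+ samples and 12 and 14 in HE pools, passed the filter only through the Epcam+ samples. Its call is not read as a result, and the 5 and the list median include it. Slc10a2, the apical bile acid transporter, had 1797 and 1552 against 254 and 574, a difference of -2.10 (adjusted p = 0.00561 from limma). The list medians were -1.77 and -1.72. No gene of either list passed the stricter limits. The colonocyte genes other than Krt20 were lower in the same pools, as given above, and their part in these values was not tested.

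In crypts of KO against WT mice, the lists had few calls. Gna14, Plcb1, Adcy5, Rgs3 and Slc16a3 were higher, by 0.63, 0.66, 0.61, 0.69 and 1.01, and Rgs16, Slc16a1 and Slc51a lower, by -1.02, -0.59 and -0.90. That is 1 of 12, 1 of 12, 1 of 18, 2 of 14, 2 of 6 and 1 of 7 tested genes in the order of the lists above, and 0 of 3 other metabolite receptors, against a background of 9.48%. Slc51a, a subunit of the basolateral bile acid transporter, had 1308 and 1318 CP20M in WT and 583 to 880 in KO crypts (adjusted p = 0.0106 from limma). Slc16a1 had 8807 and 11983 in WT and 5816 to 8187 in KO crypts (adjusted p = 0.0434 from limma). Without WT crypt 2, the values of Slc16a1, Gna14, Plcb1 and Rgs16 were -0.37, 0.43, 0.40 and -0.64, with adjusted p of 0.419, 0.28, 0.374 and 0.419 from limma, and none of the 4 passed. Adcy5 did not pass without either WT crypt library or without KO crypt 5, nor Slc16a1 without KO crypts 1, 2 or 3, nor Gna14 without KO crypt 5. Rgs3, Slc16a3 and Slc51a passed without any 1 KO mouse. Slc16a3, with 32 CP20M in both WT crypts and 59 to 89 in KO crypts, passed the filter only through the KO crypts. Its call, counted in the 2 of 6, is not read as a result. No gene of these 7 lists was called in the line with epithelial deletion or in both lines together.

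The genes whose pattern was most like that of each member were sought over the 13 libraries of the table with sorted cells and Olfr78-GFP crypts, among 18294 other genes or, for members outside the filter, 18295. The libraries share their cell sort and depth, so the correlations describe these libraries. For Ffar2 they were F2, Cacnb3 and Plch1 (Pearson r 0.984, 0.979 and 0.975). For Ffar4 they were Lamb1, Gm28305 and Bet1 (0.985, 0.976 and 0.968), and for Gpr35 Lipg, Aldh16a1 and Irf8 (0.984, 0.983 and 0.977). Between members, Ffar4 and Gpr35 had r = 0.823, Ffar2 and Gpr35 -0.809, and Ffar2 and Ffar4 -0.696. For Casr (Gm7162, Slc15a3 and Ttc12, 0.953, 0.946 and 0.94), Gpr119 (Btbd2, AC154141.1 and Acp2, 0.94, 0.914 and 0.91) and Hcar2 (Zfp11, Aamp and Gramd2, 0.891, 0.882 and 0.872), only 1 or 2 of the 13 libraries were above 40 CP20M.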

How the data were processed

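RNA was measured in 18 libraries, grouped by their titles. Alignment to GRCm38 was done by the authors with STAR and the count of each gene with HTSeq. What the authors deposited is, for sorted cells, a signal (reads of a gene per 20000000 of the library, rounded up) and, for crypts, a score of the same make. Whole reads were recovered for 99.84% to 99.99% of the values of a library, at which 1 read was worth 1.82 to 37.54.

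Genes with at least 40 CP20M (2 CPM) in at least 2 compared libraries, or above 40 in all 4 pools for KO against HE pools, were tested with limma 3.58.1 in R 4.3.3, with a trend, on log2(CP20M + 10). Log2 fold changes are on this scale, which understates low genes. P-values were adjusted over all genes tested by Benjamini-Hochberg. The design was written for scaled values and was kept. Tests of the recovered reads with edgeR 4.0.16 and DESeq2 1.42.0 were alternatives, beside pseudocounts of 1 and 40, no filter, median-of-ratios rescaling, no trend, the library number as a block, all sorted libraries in 1 fit and leaving out each library. Fits were also run on simulated reads of genes well above the filter, with an outcome not given here. They do not cover the low members or pools as far apart as the KO pools in Ffar2. Ratios of summed reads have exact conditional 95% intervals, which cover counting error only.

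The members and lists were chosen with earlier results of these data known. All members, Olfr78, the list genes past the thresholds (at most 5 per list and direction by p, the widest lists by examples) and the 3 genes most like each member with a group mean of at least 40 CP20M were named. The smallest p of an exact permutation test for 2 against 2 libraries is 0.333. Both Epcam+ samples come from 1 mouse, so their spread does not cover that between mice. The same numbers in titles name different animals or pools, so libraries were not paired.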

Additional observations from a re-analysis of the deposited data

Results flagged for a closer look

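Of 11 genes tested for a library far from the others in the 5 KO crypts, 1 stood out. Gpr119 had 17 CP20M, from 7 reads, in KO crypt 4, against 10 to 12 in the other 4, a gap of 0.714 of the range. Chance sets apart about 1 in 20 such groups. No member differed in its genotype effect between the 2 lines with all libraries in the fit.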

How the results depend on the processing

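For HE pools against Epcam+ samples, the members called at the stricter limits went from 0 to 1 (Ffar2) with a pseudocount of 40, no filter, edgeR, DESeq2 or the replicate block, and were 0 to 2 on leaving out a library. Genes went from 287 to 77 and 522 with pseudocounts of 1 and 40, 746 with edgeR, 691 with DESeq2, 0 without a trend, 523 with the replicate block, 117 with all 6 sorted libraries in 1 fit, and 317 to 1195 on leaving out a library, the highest without HE pool 1. Members at an adjusted p under 0.05 went from 1 to 3 with a pseudocount of 40, to 2 with edgeR, no trend or the replicate block, and were 1 to 3 on leaving out a library.

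For KO against HE pools by the criterion, members went from 1 to 4 without a filter (Casr, Ffar3, Hcar2 and Ffar4) and to 2 with at least 40 in 2 of 4 pools (Casr and Ffar4), and genes from 1571 to 3696 and 2468. Pseudocounts, other tests and leaving out a pool give no value for it. By limma, members were 0 to 1 and genes 0 to 373 on leaving out a pool, the highest without KO pool 1, and genes went from 0 to 2 without a filter and 8 with DESeq2. With crossed pool numbers as a block, chosen after seeing the data, 85 genes were called and 0 members.

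For KO pools against Epcam+ samples, genes went from 0 to 15 without a filter, 31 with edgeR, 238 with DESeq2, 194 with the replicate block and 33 with all 6 sorted libraries, and were 153 to 1753 on leaving out a library, the highest without KO pool 2, with members 0 to 1, or 0 to 2 at an adjusted p under 0.05. For KO against WT crypts, genes went from 1514 to 854 with a pseudocount of 40 and were 546 to 1684 on leaving out a mouse, the lowest without WT crypt 2. For eKO against eCtrl they went from 0 to 6 with DESeq2 and 13 with the replicate block, and were 1 to 6. For both lines they went from 4 to 9 with edgeR, 38 with DESeq2, 0 without a trend and 27 with the replicate block, and were 0 to 1134, the highest without eKO 1. For the difference between lines they went from 5 to 3 with a pseudocount of 1 or no filter, 66 with DESeq2 and 50 with the replicate block, and were 2 to 4296, the highest without eKO 2 and next 616 without eCtrl 1, with members 0 to 1. The cause of these changes was not tested.

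Some directions turned. For KO against WT crypts the replicate block gave -0.088 for Gpr35 and 0.0655 for Ffar4, which ran from -0.15 to 0.15 on leaving out a mouse. For both lines Gpr35 was -0.0367 with rescaling, -0.021 with edgeR, -0.029 with DESeq2 and -0.0885 with the replicate block, and ran from -0.0496 to 0.0756, and Ffar4 from -0.0446 to 0.23. Leaving out a library gave -0.0286 to 0.0425 for Ffar4 between KO pools and Epcam+ samples, -0.29 to 0.0178 for Gpr35 and -0.0927 to 0.60 for Ffar4 between eKO and eCtrl, and, between the lines, -0.23 to 0.97 for Ffar2, -0.0734 to 0.62 for Ffar4 and -0.0241 to 1.40 for Olfr78. Of the mean levels of members by group, 56 of 63 moved by less than 1 SD under rescaling. The recovered reads limit the 6 low members, where 1 read is worth 8.94 CP20M or more in sorted cells.

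Deviations of same-numbered libraries correlated at 0.03 for HE pools and Epcam+ samples, 0.02 for KO pools and Epcam+ samples, -0.24 for KO and HE pools, 0.06 and -0.10 for KO and WT crypts and 0.59 and 0.36 for eKO and eCtrl crypts. The labels give these numbers no shared animal or batch. In the eKO line the replicate block gave 0.50 for Ffar2 and 0.58 for Ffar4, not called, against 0.65 and 0.25.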
